A study of Homo sapiens with 4 samples.

Results

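Genes of the PGC-1 circuit were examined in a map of binding sites of the oestrogen-related receptor ERRα in a human breast cancer cell line. The line, MDA-MB-231, is long established and lacks the oestrogen receptor ERα. The genes are the coactivators PPARGC1A (PGC-1α), PPARGC1B (PGC-1β) and PPRC1 (PRC), the muscle regulator PERM1, and the DNA-binding factors NRF1, GABPA, GABPB1 and YY1. They were taken by name, 8 of 20037 protein-coding genes, and every peak was kept whose summit lay inside one of them or within 100 kb (RefSeq, GRCh38). This gave 20 of 14072 peaks of replicate 1, 13 of 12659 of replicate 2, and 9 of 10059 in the list of peaks matched between the replicates. The series holds 2 ERRα ChIP-seq libraries and 2 input libraries of chromatin without immunoprecipitation, from cross-linked chromatin of this line, with no treatment named and no second condition. The labels give 29000000 reads for the ERRα samples and 10000000 for the inputs, if a missing exponent sign is assumed in the printed figures. Because cells were measured in 1 state and no expression values were used here, the data show where ERRα peaks lay and not whether a gene responded.

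ERRα is an orphan nuclear receptor that depends on coactivators rather than on a hormone. PGC-1α and PGC-1β bind it and raise its activity at genes of the respiratory chain, and PRC is the remaining member of that coactivator family, induced when cells enter growth. NRF1 (nuclear respiratory factor 1), the GABP complex, made of the DNA-binding subunit GABPA and an activating subunit such as GABPB1, and YY1 are transcription factors that act at promoters of nuclear genes for mitochondrial proteins, and PGC-1 coactivators work with them too. PERM1 is induced by PGC-1α and ERRs in muscle. The series set out to find target genes of ERRα, and the question for these genes is where ERRα peaks lay around the regulators it works with.

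Each peak carries a fold enrichment, given by the authors, which divides the ChIP signal at its summit (the base of highest signal) by the background of the inputs. Peaks matched between replicates carry an irreproducible discovery rate (IDR), which is small where both replicates rank a peak high, and those with an IDR up to 0.05 are called reproducible. Of 24 separate sites around the 8 genes, 5 were reproducible, 4 were matched with a larger IDR, 11 were found in replicate 1 alone and 4 in replicate 2 alone. The 5 reproducible sites had mean folds from 9.41 to 21.6, and the 15 single-replicate sites had folds from 3.91 to 8.26 with a median of 5.41. All reproducible peaks of the genome together had a median mean fold of 12.9.

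A reproducible summit in the gene or within 100 kb was found for PPARGC1B, PPRC1, NRF1 and YY1, that is for 4 of 8 genes, against 46.4% of all protein-coding genes. Inside the gene itself, PPARGC1B and PPRC1 had one, 2 of 8 against 11.5%. None of the 8 had a reproducible summit within 1 kb of either gene end, against 4.49% of all protein-coding genes, and none of the 7 with a start in the RefSeq promoter table had one within 1 kb of that start, against 4.51%. In the matched list without an IDR limit PPARGC1A joined the first 4, which made 5 of 8 against 64.4%. That list had a summit inside 3 of 8 genes against 19.4%, within 1 kb of an end of 0 of 8 against 8.85%, and within 1 kb of a tabled start of 0 of 7 against 9.05%. The list of replicate 1 had a summit in or near 7 of 8 genes against 72.5%, all but GABPB1. The list of replicate 2 had one for 6 of 8 against 70.0%, all but PERM1 and GABPA. In each replicate PPARGC1A, PPARGC1B and PPRC1 had a summit inside the gene, 3 of 8 against 24.9% in replicate 1 and 22.8% in replicate 2. The counts for the 100 kb window lay near the share of all genes. Those inside the gene lay above it, but they were not adjusted for gene length. PPARGC1A is 680.9 kb long, PPARGC1B 127.7 kb and PPRC1 30.45 kb. A share of 4.49% at the ends corresponds to fewer than 1 gene in 8, and no test was made.

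**Figure D1:**
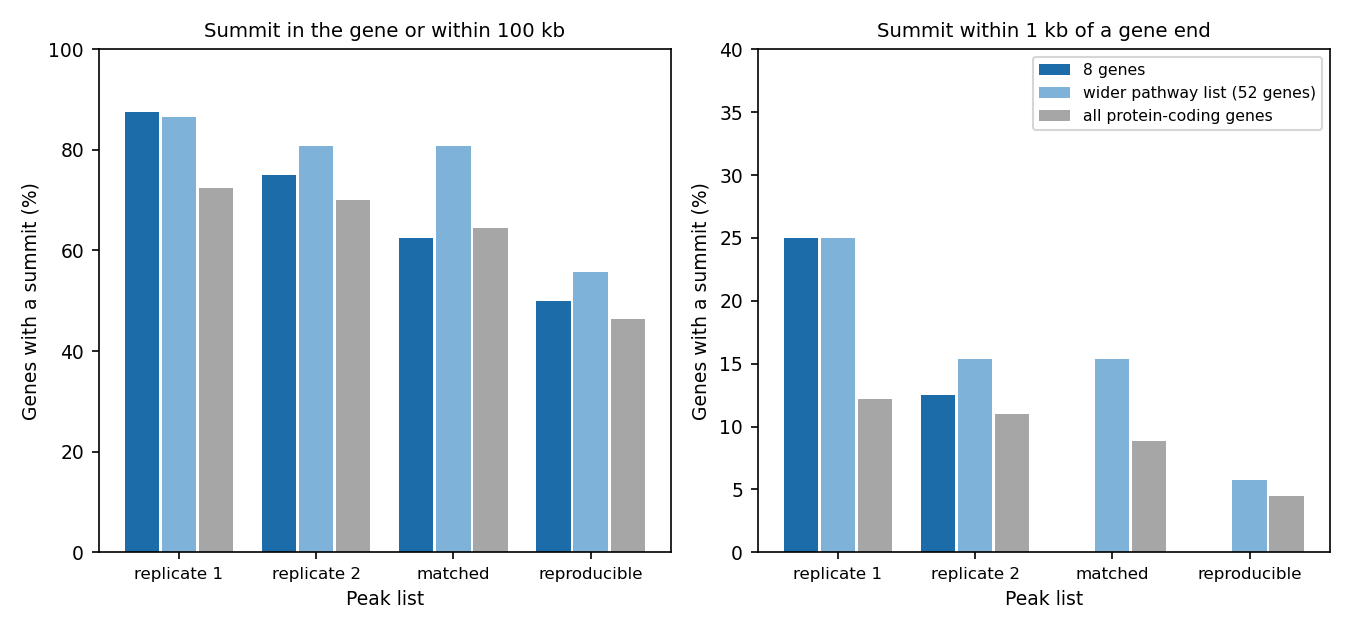
Share of genes (y axis, %) with an ERRα summit in the gene or within 100 kb (left) and within 1 kb of either gene end (right), for each peak list (x axis). Bars are the 8 genes, the 52 genes of a wider pathway list and all 20037 protein-coding genes; the share of the 8 genes falls from 87.5% in replicate 1 to 50.0% for reproducible peaks on the left, and is 0 for matched and reproducible peaks on the right.

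The sequence of a start region is shown for GABPB1 and GABPA, because they were the members of the group with a summit within 1 kb of their own transcription start. Both peaks were found in 1 replicate each. The stretches are the 250 bases before the start (RefSeq, GRCh38.p14), written 5′ to 3′ on the strand of the gene. The GABPB1 summit lies within its stretch, whereas the GABPA summit, 436 bp before the start, lies outside its own. That of GABPB1 is chr15:50355199-50355448 on the minus strand, and its capitals mark 21 bases centred on the replicate 2 summit. That of GABPA is chr21:25734722-25734971 on the plus strand, and its capitals mark ACTTCCGG, the reverse complement of CCGGAAGT, the core to which ETS factors such as GABPA itself bind.
GABPB1: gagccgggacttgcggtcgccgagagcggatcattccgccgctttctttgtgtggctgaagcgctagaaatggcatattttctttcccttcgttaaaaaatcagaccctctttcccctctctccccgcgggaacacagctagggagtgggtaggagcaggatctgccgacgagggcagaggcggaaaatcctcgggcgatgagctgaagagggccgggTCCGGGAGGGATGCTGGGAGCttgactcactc
GABPA: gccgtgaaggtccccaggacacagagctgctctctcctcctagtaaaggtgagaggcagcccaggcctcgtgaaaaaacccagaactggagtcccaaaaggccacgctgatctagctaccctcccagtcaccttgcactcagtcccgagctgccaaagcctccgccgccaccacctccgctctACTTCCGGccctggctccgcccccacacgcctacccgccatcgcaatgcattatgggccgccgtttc
The GABPB1 stretch was 58.8% G or C and the GABPA stretch 62.4%, and the median over all protein-coding start windows was 62.0%.

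PPARGC1A, the best known coactivator of ERRα, had no reproducible peak. The gene spans 681 kb of chromosome 4 (23792021 to 24472905, minus strand, with starts listed at 24472905 and 23881101). Its matched peak, chr4:24088290-24088782, reached a fold of 4.55 in replicate 1 and 4.46 in replicate 2. These nearly equal heights were low in both lists: 9.26% of replicate 1 peaks and 7.47% of replicate 2 peaks were weaker. The IDR was 0.426, far above the limit, although the summits of the replicates were 11 bp apart. It lay inside the gene, 296 kb above its lower end and at -207 kb from the inner start (negative distances are upstream of a start). Replicate 1 had a second peak inside the gene, 90.3 kb after the outer start, with a fold of 4.69, and the closest replicate 2 summit was 294 kb from it. No list had a summit within 1 kb of either start. The nearest reproducible summit was 212 kb outside the gene, with a mean fold of 7.63.

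PPARGC1B, the close relative of PGC-1α, had a reproducible peak inside the gene. The gene lies on the plus strand of chromosome 5 (149730310 to 149857959), and the start given in the promoter table is at 149771940. The peak chr5:149838912-149839642 had a fold of 14.02 in replicate 1 and 14.8 in replicate 2, a mean of 14.4 ± 0.588 (SD, n = 2). Of all reproducible peaks, 58.9% were weaker, so it sat a little above the middle (rank 2085 of 5070). Its summit was 67.3 kb after the tabled start and 18.7 kb before the end of the gene, and the next protein-coding gene was PDE6A, a photoreceptor phosphodiesterase subunit (named after its values were seen), 18.7 kb away. The summits of the replicates were 110 bp apart, the widest spacing of the 5 reproducible sites.

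Other PPARGC1B sites were weaker. A second matched peak, 11.4 kb after the tabled start, had a fold of 6.85 in replicate 1 and 8.86 in replicate 2, and with an IDR of 0.120 it was not reproducible. Another matched peak, in the neighbouring PDE6A and 46.5 kb beyond PPARGC1B, had folds of 5.54 and 6.22 and an IDR of 0.426. Replicate 1 alone had 3 further summits, with folds of 3.91, 4.86 and 8.26. The first lay 36.2 kb before the gene, the second inside it and the third inside PDE6A, 81.9 kb beyond PPARGC1B. Replicate 2 alone had 1, with a fold of 5.41, also inside PDE6A and 20.3 kb beyond PPARGC1B. The window of PPARGC1B thus held 7 of the 24 sites, the most of the 8 genes, followed by that of NRF1 with 6.

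PPRC1, the growth-regulated coactivator, had the strongest peak of the group. The peak chr10:102121034-102121872 reached a fold of 21.8 in replicate 1 and 21.3 in replicate 2, a mean of 21.6 ± 0.367 (SD, n = 2). It ranked 1057 among the 5070 reproducible peaks, above 79.2% of them, and the replicate summits were 13 bp apart, the closest of the 5 sites. In the RefSeq gene table PPRC1 runs from 102119889 to 102150333 on the plus strand, which puts the summit 1.60 kb inside the lower, upstream end of the gene. The start in the promoter table, however, is at 102133040, and from there the summit was at -11.5 kb. The same summit lay 49 bp outside the upper end of LDB1, a minus-strand gene for an adaptor of LIM-domain factors (named here after its values were seen). The upstream ends of PPRC1 and LDB1 thus overlap in the gene table, and the peak lists do not assign the peak to one of them. For LDB1 too the promoter table has another start, at 102115002, and from there the summit was at -6.49 kb. Of the other PPRC1 sites, one in replicate 1 alone, inside LDB1 and 7.60 kb before PPRC1, had a fold of 6.09, and one in replicate 2 alone, inside ARMH3 (likewise) and 63.8 kb before PPRC1, had 4.54.

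The tabled start of PPRC1 carries a match to a core of the YY1 motif, shown because YY1 itself is another member of the group. It lies 26 to 34 bases after the start (chr10:102133056-102133084 with 10 bases on either side, plus strand), with the match AAGATGGCG in capitals.
PPRC1: ttcaggggccAAGATGGCGgcgcgccggg
No ERRα peak of any list had its summit within 1 kb of that start.

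PERM1, which is expressed mainly in skeletal and heart muscle, had 1 peak, in replicate 1 alone. The gene lies on the minus strand of chromosome 1 (975198 to 982093), with starts listed at 982093 and 981173. The peak chr1:974775-975182 had a fold of 6.85, and 46.9% of replicate 1 peaks were weaker. Its −log10 q (q is the false discovery rate of the peak caller) was 8.59. Its summit was 260 bp outside the lower end, which on the minus strand is the downstream end of the gene, 7.16 kb and 6.24 kb after the starts. It lay within the neighbouring PLEKHN1 (named after its values were seen). The closest replicate 2 summit was 333 kb away, as was the nearest reproducible one. The count of replicate 1 summits within 1 kb of a gene end, 2 of the 8 genes against 12.2% of all, was made up of PERM1 and GABPA, and at starts alone it was GABPA, 1 of the 7 genes with a tabled start against 12.7%.

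NRF1, the nuclear respiratory factor whose sites mark many promoters of respiratory genes, had 2 reproducible summits, both outside the gene. NRF1 spans 129611720 to 129757076 on chromosome 7. The peak chr7:129764173-129764800 had folds of 10.7 in replicate 1 and 11.3 in replicate 2 (mean 11.0 ± 0.441, SD, n = 2), and its summit was 7.37 kb beyond the upper end, in the non-coding gene LOC105375501. NRF1 was the nearest protein-coding gene to it. The second, chr7:129538591-129539072, had folds of 8.75 and 10.1 (mean 9.41 ± 0.932, SD, n = 2) and lay 72.9 kb below the lower end of NRF1, nearer to SMKR1 (25.9 kb) and to STRIP2 (50.4 kb), a component of a phosphatase and kinase scaffold. The peak beyond the upper end was the higher one in both replicates. Both were weaker than most reproducible peaks, since 34.8% and 19.3% of those were lower. Their IDRs were 0.00172 and 0.0130, so the distal peak would not pass a limit of 0.01.

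At least 2 reproducible summits in the gene or within 100 kb were found for 1 of 8 genes, NRF1, against 20.6% of all protein-coding genes, and 3 or more for 0 of 8 against 9.26%. A further matched peak of NRF1 lay 97.1 kb beyond the gene, inside UBE2H, a ubiquitin-conjugating enzyme gene (named after its values were seen), with folds of 6.85 and 7.65 and an IDR of 0.0783. Replicate 1 alone had 3 more, of folds 6.47, 5.71 and 4.95. Of these, 2 flanked the distal reproducible peak at distances to NRF1 of 79.4 kb and 68.2 kb, and the third, at 88.8 kb, lay near the matched peak in UBE2H. None of the 6 sites lay inside NRF1. NRF1 was among 2281 protein-coding genes with 2 reproducible summits in the gene or within 100 kb. The other members and the wider pathway list were left out when genes most like it were sought. By summed mean fold (20.4 for NRF1), the closest were ATG7 (chromosome 3), an autophagy enzyme, and the neighbours TXNDC2 and VAPA (chromosome 18). Whether TXNDC2 and VAPA share their summits with each other was not examined. On the log2 scale the summed fold of ATG7 differed from that of NRF1 by 0.000186 and those of TXNDC2 and VAPA by 0.000189, and none of them shared a summit with it.

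GABPA, the DNA-binding subunit of GABP, shares its start region with ATP5PF, a gene for a stalk subunit of ATP synthase (named after its values were seen). GABPA runs upward from 25734972 on chromosome 21, and ATP5PF runs the other way from starts at 25734904 and 25735054. Replicate 1 had the peak chr21:25734256-25734950 with a fold of 7.23, which was higher than 50.95% of its peaks. The summit was 436 bp before the GABPA start and 368 bp and 518 bp after the ATP5PF starts, so it lay inside ATP5PF. The peak covered positions -716 to -22 from the GABPA start, and thus the ETS match at -67 to -60, which is also the last 8 bases before the ATP5PF start at 25734904. The closest replicate 2 summit was 240 kb from this one, and the nearest reproducible summit was 617 kb away.

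GABPB1, the activating partner of GABPA, had a peak called in replicate 2 alone. The gene lies on the minus strand of chromosome 15 (50275389 to 50355198) with its start at the upper end. The peak chr15:50354897-50355385 had a fold of 6.88 and a −log10 q of 8.61, and 45.4% of replicate 2 peaks were weaker. Its summit was 22 bp before the start, the closest of the 24 sites to a tabled start of its gene, and lay also inside the antisense non-coding gene GABPB1-AS1. The closest replicate 1 summit was 409.9 kb away. In replicate 2, GABPB1 was 1 of 8 genes with a summit within 1 kb of an end, against 11.0%, and 1 of 7 at a tabled start, against 11.2%. GABPA and GABPB1 thus each had a peak near the start in 1 replicate, with folds of 7.23 and 6.88, and none called in the other.

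YY1, a zinc-finger factor that joins PGC-1α at mitochondrial genes, had a reproducible peak upstream of the gene. YY1 lies on the plus strand of chromosome 14 (100239144 to 100282788), and the peak chr14:100191999-100193141 had folds of 14.9 in replicate 1 and 13.1 in replicate 2, a mean of 14.02 ± 1.30 (SD, n = 2). It was the broadest of the 5 reproducible peaks at 1143 bp, against a median of 774 bp over all reproducible peaks. Its summit was 46.3 kb before the start of YY1 and 26.0 kb from DEGS2, a sphingolipid enzyme gene. Replicate 2 alone had a peak 24.7 kb before the start, in the divergent transcript YY1-DT, with a fold of 5.12. Replicate 1 alone had one 93.6 kb beyond the gene, 50 bp from WARS1 (named after its values were seen), with a fold of 4.32.

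**Figure D2:**
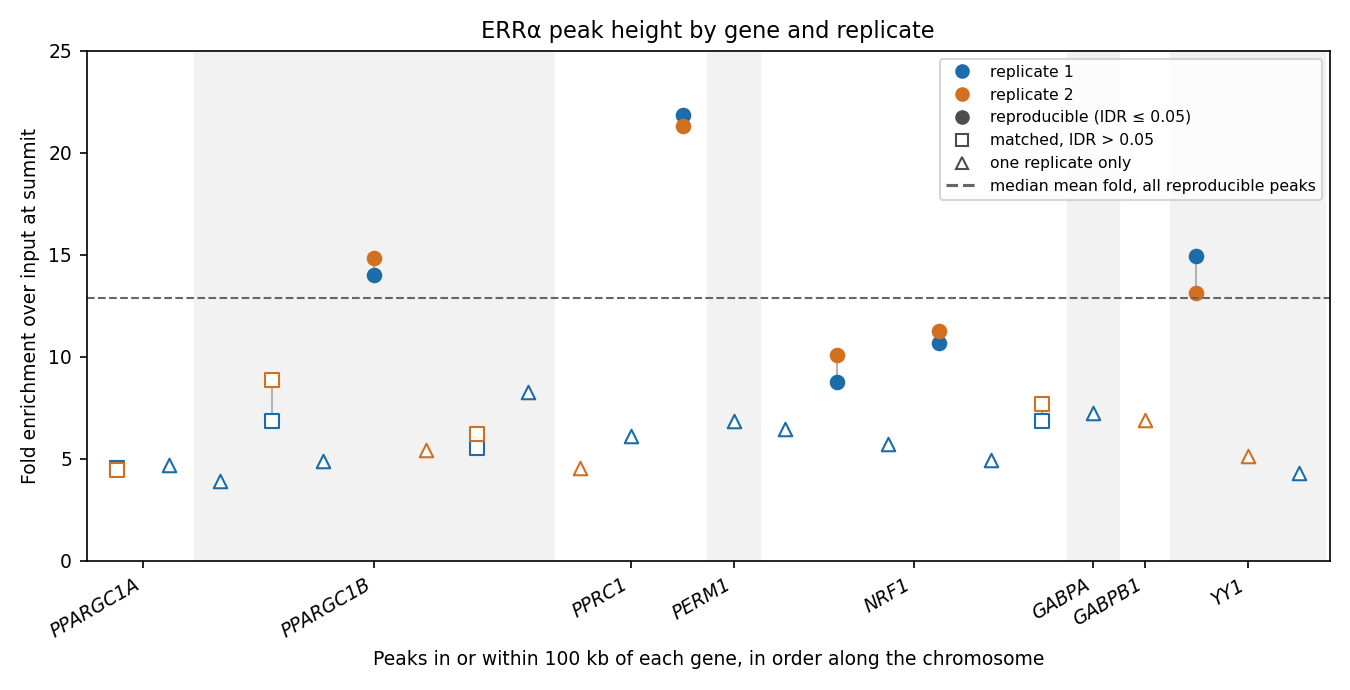
Fold enrichment over input (y axis) of every ERRα peak in or within 100 kb of each gene (x axis, peaks in order along the chromosome within each gene), replicate 1 in blue and replicate 2 in orange, with a grey line joining the replicates of a matched peak. The PPRC1 peak stands highest at 21.8 and 21.3, those of PPARGC1B and YY1 lie above the dashed line (12.9, the median over all reproducible peaks), and the highest peak of 1 replicate alone (triangles) is at 8.26.

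Ordered by mean fold, the reproducible peaks ran from PPRC1 (21.6) over PPARGC1B (14.4) and YY1 (14.02) to the NRF1 peaks (11.0 and 9.41). The PPARGC1B and YY1 means differed by less than the SD of YY1, and the replicates put them in opposite order. The ranges of PPRC1 and PPARGC1B over the 2 replicates did not overlap, nor did those of YY1 and the nearer NRF1 peak. For scale, the peak at ESRRA, the gene of ERRα itself, reached 544.0 in replicate 1 and 543.3 in replicate 2, the strongest of all reproducible peaks, and every peak of the group was far below it.

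**Figure D3:**
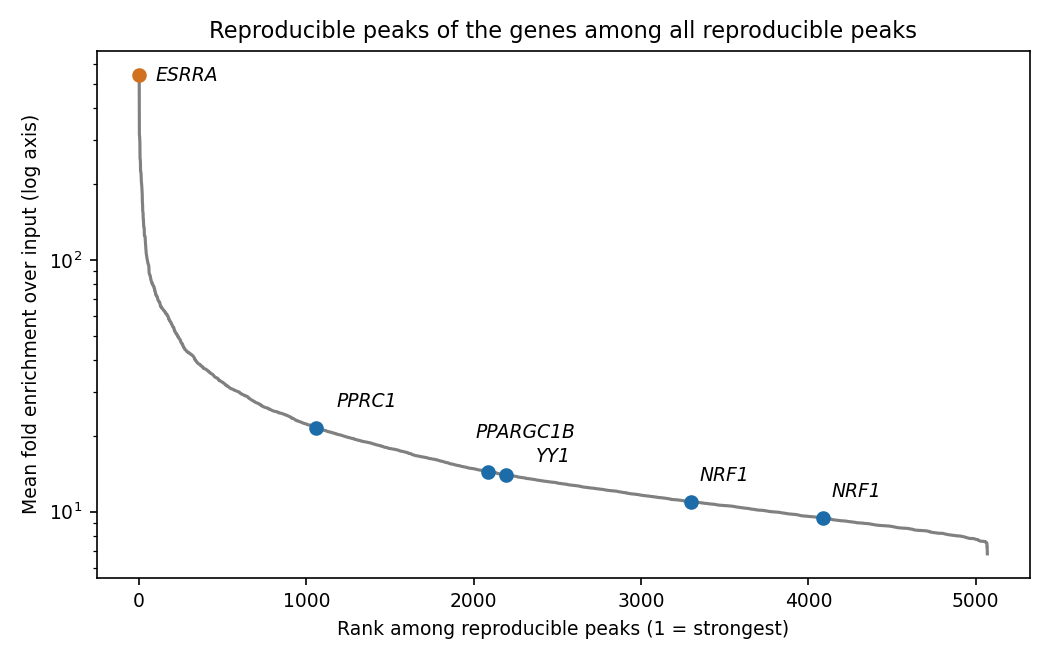
Mean fold of the 5070 reproducible peaks (y axis, log scale) against their rank (x axis, 1 the strongest). Blue points are the 5 reproducible peaks of PPRC1, PPARGC1B, YY1 and NRF1, at ranks from 1057 to 4090, and the orange point is ESRRA at rank 1.

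In position, the reproducible sites lay from 1.60 kb inside the upstream end of PPRC1 to 72.9 kb from NRF1. PPARGC1B and PPRC1 had theirs within the gene, and NRF1 and YY1 outside it. Around PPARGC1A, PERM1, GABPA and GABPB1 the nearest reproducible summit was 212 kb, 333 kb, 617 kb and 409.9 kb away. At the edge of the 100 kb window, the furthest summit inside lay 97.2 kb from NRF1, in replicate 2, and the nearest outside 123.9 kb from YY1. A narrower window shortened the list: of the 5 reproducible summits, 4 lay within 50 kb and 3 within 10 kb. Summed over the 8 windows, 2.75 Mb held 5 reproducible summits, or 1.82 per Mb, against 3.19 per Mb over the windows of all protein-coding genes. The 2 values are not alike. Windows of neighbouring genes overlap, so the second counts summits and bases of gene-dense regions more than once, and the 8 windows lie on separate chromosomes. The window of PPARGC1A, 881 kb long, held none.

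**Figure D4:**
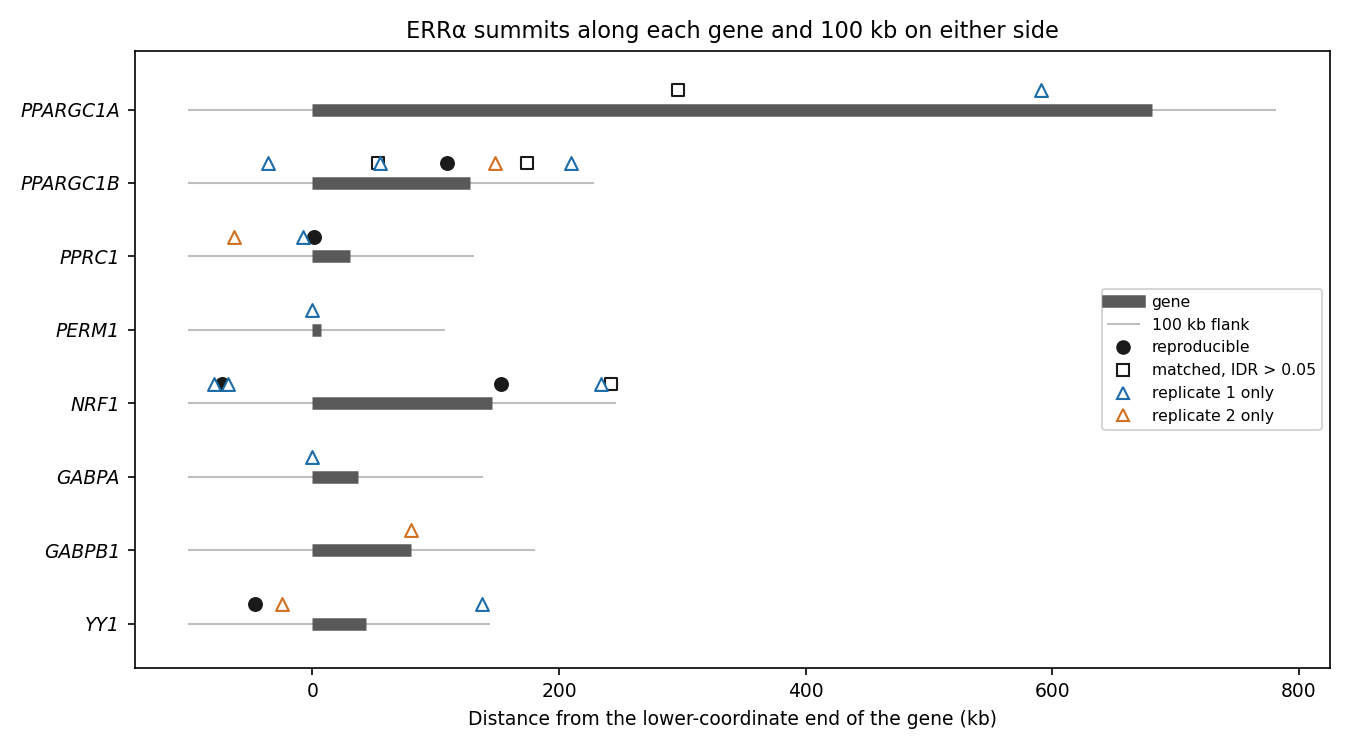
Position of every ERRα summit (markers) relative to the lower-coordinate end of each gene (x axis, kb), with the gene as a thick bar and 100 kb flanks as thin lines. Reproducible summits (black circles) lie in PPARGC1B, 1.60 kb into PPRC1, on both sides of NRF1 and before YY1.

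Peaks seen in 1 replicate made up 11 of the 20 replicate 1 peaks around the 8 genes and 4 of the 13 of replicate 2. Over the whole lists, 28.1% of replicate 1 peaks and 20.2% of replicate 2 peaks had no overlapping peak in the other replicate. No single-replicate site of the group overlapped a peak of the other replicate. The labels give no separate read number for each ERRα library, and the part of depth in this difference was not tested.

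The letters of the start regions were searched for motifs on both strands. RefSeq start windows, each from 250 bases before to 50 after a start, were found for 7 of the 8 genes (9 windows). None of them held the ERR response element TCAAGGTCA, its looser form TNAAGGTCA, or the extended half-site AAGGTCA that is contained in both, and none held the palindromic NRF1 motif or TGACGTCA (the cAMP response element). The ETS core CCGGAAGT was found in the GABPA window and AAGATGGCG (YY1) in the PPRC1 window. Of 22199 windows of protein-coding genes, 0.243% held TCAAGGTCA, 0.671% TNAAGGTCA, 3.22% AAGGTCA, 1.5% the NRF1 motif, 5.34% CCGGAAGT, 2.41% AAGATGGCG and 2.26% TGACGTCA. Of the 166 windows with a reproducible ERRα summit inside, 7.23% held TCAAGGTCA, 12.05% TNAAGGTCA, 39.8% AAGGTCA, 1.205% the NRF1 motif, 15.06% CCGGAAGT, 7.83% AAGATGGCG and 2.41% TGACGTCA. The share was thus higher than over all windows for the ERR, ETS and YY1 letters, lower for the NRF1 motif, which 2 of the 166 held, and close to it for TGACGTCA, with no test made. Of the 9 windows of the group, the GABPB1 window printed above contained a summit, that of replicate 2. Sequence under the other summits was not analysed here.

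A wider list of 52 genes around the same circuit gave a frame for these counts. It holds nuclear receptors that PGC-1 coactivators bind, partner coactivators and corepressors, upstream kinases and factors, and the factors of mitochondrial transcription and replication, several of which NRF1 and GABP control. A reproducible summit in the gene or within 100 kb was found for 29 of the 52 (55.8%, against 46.4% of all genes): 5 of 9 nuclear receptors, 11 of 15 partners, 9 of 20 upstream regulators and 4 of 8 mitochondrial factors. Within 1 kb of an end there were 3 of 52 (5.77%, against 4.49%), namely ESRRA, the coactivator gene NCOA1 and POLG, the mitochondrial DNA polymerase. The NCOA1 summit had folds of 16.1 and 15.6 and lay 175 bp from a tabled start, and that of POLG had 25.9 and 19.9 and lay 602 bp from it. In replicate 1 a summit lay within 1 kb of an end for 5 of 8 mitochondrial factors (62.5%, against 12.2% of all genes). The other groups had 3 of 9 nuclear receptors, 3 of 15 partners and 2 of 20 upstream regulators. In replicate 2 the mitochondrial factors fell to 1 of 8 (12.5%, against 11.0%). The nuclear receptors stayed at 3 of 9, beside 2 of 15 partners and 2 of 20 upstream regulators. The matched list without an IDR limit gave the same counts as replicate 2, against 8.85% of all genes.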

How the data were processed

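ERRα ChIP-seq peaks of MDA-MB-231 cells were analysed as deposited: 1 list for each of 2 ChIP replicates, called against both inputs, and 1 list of peaks matched between them. The submitters' processing notes name hg38 as the build, MACS2 2.2.6, Bowtie2 2.3.5 and Trim Galore 0.6.5, beside deepTools, SAMtools and Picard; their settings, and those of the IDR step, are not given here. Fold enrichment is a ratio deposited by the authors, −log10 q values were deposited beside it, and the deposited IDR score of the matched list was cut at 540, an IDR of 0.05. Read counts per peak were not used, so counting error could not be given. The SD is over 2 replicates, which came from 2 cell cultures per the series' design text, and is itself imprecise.

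Unplaced contigs were left out (371 peaks of replicate 1, 358 of replicate 2 and 272 matched). Each matched peak took its folds from the strongest overlapping peak (at least 1 bp) of each replicate. Genes were those of a RefSeq table of GRCh38.p14, the build of the peaks, and starts and strands came from the RefSeq promoter table (15843 protein-coding genes). A gene was counted by a summit inside it or within 100 kb, or within 1 kb of an end. The counting script was checked on planted summits. No significance test was made, since 1 cell state was measured and the 8 genes and the wider list were chosen with earlier results of these data known. Genes named are the 8 members, genes nearer to a reproducible summit, up to 2 genes in each role group of the wider list with the strongest reproducible summit within 1 kb of an end, and the 3 most like NRF1; others are marked as named after their values were seen. Alternatives were windows of 50 kb and 10 kb, of 500 bp and 5 kb at gene ends, tabled starts alone, an IDR of 0.01 (score of 830), all matched peaks, a −log10 q of at least 5, and each replicate alone. Python 3.11.15, pandas 2.3.3 and numpy 2.4.6 were used.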

Additional observations from a re-analysis of the deposited data

How the results depend on the processing

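No paired analysis was possible because the results come from no test, and each replicate was called against both inputs together. The count of 4 genes with a reproducible summit within 100 kb was 4 with a 50 kb window, at an IDR of 0.01 and with a −log10 q of at least 5, 3 with a 10 kb window and 5 with all matched peaks. The lists of a single replicate, which hold weaker peaks, gave 6 to 7. The 5 reproducible summits became 4 with the 50 kb window and 4 at an IDR of 0.01. The summit lost at both settings was the distal one of NRF1, which left NRF1 with a single reproducible summit. They became 3 with the 10 kb window, 9 with all matched peaks and 13 to 20 in a single replicate. The 0 genes with a summit at an end became 1 with a window of 5 kb, where PPRC1 enters, and 1 to 2 in a single replicate. Of the wider list, 13 genes had a summit within 10 kb. At ends, 0 had one within 500 bp, 6 within 5 kb and 8 with all matched peaks, where the share of all genes was 8.85%. For windows of 50 kb, 10 kb, 500 bp and 5 kb, an IDR of 0.01 and the −log10 q limit, that share was not computed. Counts at those settings thus have no genome-wide share to be set against. A single replicate gave 8 to 13 at ends, where the share of all genes was 11.0% to 12.2%, and 42 to 45 within 100 kb, where it was 70.0% to 72.5%. The folds of single replicates ran from 14.02 to 14.85 for PPARGC1B, 21.3 to 21.8 for PPRC1, 10.7 to 11.3 for NRF1 and 13.1 to 14.9 for YY1. YY1 had no value within 10 kb. Counts and folds have no direction that could reverse, so these settings show only how far each value moved. Read counts per peak are unknown, so counting error could not be given.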

Other observations

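Part of the deposited folds fell on evenly spaced values. In replicate 1, 29.9% of all peaks had a fold that is a whole multiple of 0.381, within 0.005 steps, and in replicate 2, 28.4% were whole multiples of 0.403. Around the 8 genes this held for 10 of 20 peaks of replicate 1 and 4 of 13 of replicate 2. The 3 matched NRF1 peaks were at whole multiples in both replicates: the peak beyond the upper end at 28 steps in each, the one below the lower end at 23 and 25, and the one in UBE2H at 18 and 19. In replicate 1 the peaks at PERM1, in UBE2H and 11.4 kb after the PPARGC1B start had the same fold of 6.85, or 18 steps, and the same −log10 q of 8.59. The GABPA peak was at 19 steps, 1 above them. The PPRC1, PPARGC1B and YY1 reproducible peaks were not whole multiples in either replicate.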
